A study of Mus musculus with 14 samples.

Results

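The genes described here are 8 genes of the follicular helper T (Tfh) cell program, Bcl6, Bcor, Ascl2, Pou2af1, Cxcr5, Icos, Sh2d1a and Il21. They were taken from the deposited counts of sorted mouse spleen T cells as the genes whose symbol equals one of these names, which found 8 of the 24091 genes counted. Of these, 7 had enough reads to be tested among 12248 genes, and Ascl2 did not. The mice carried the SCLtTA/BCR-ABL transgenes, in which an enhancer of blood stem and progenitor cells drives BCR-ABL, on a C57Bl/6j background, were 6 to 10 weeks old, and had expressed BCR-ABL for 3 weeks after tetracycline withdrawal (tet-off). The 8 Mir142+/+BCR-ABL mice modeled chronic phase leukemia (CP CML) and the 6 Mir142−/−BCR-ABL mice blast crisis (BC CML). Both groups carried the induced leukemia transgene, and disease phase differed together with genotype. The Mir142 knockout was germline, so it was carried by every cell of the mouse and not by T cells alone. Each library came from 200000 T cells of 1 mouse, and the sort gate used for these libraries was not given in the sources used here.

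Tfh cells are CD4+ T cells that move into B cell follicles and help B cells to form germinal centers and to make high-affinity antibody. BCL6 is the transcriptional repressor that fixes this fate, the chemokine receptor CXCR5 guides the cells to follicles, the costimulatory receptor ICOS and the adaptor SAP (encoded by Sh2d1a) sustain their contact with B cells, and IL-21 is their main cytokine. Several of these genes are not particular to T cells, since Bcl6, Cxcr5 and Pou2af1 are also expressed by B cells. MicroRNA-142 is made by blood cells in general, and its hairpin gives a mature strand from each arm.

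The mature strands are shown because they are what the knockout removes, with the seed (bases 2 to 8, through which a microRNA pairs with its targets) in capitals. They are from RefSeq on GRCm38.p6 (the assembly also called mm10), where miR-142a-5p is at chr11:87756867-87756887 and miR-142a-3p at chr11:87756903-87756925, both on the plus strand.
mmu-miR-142a-5p: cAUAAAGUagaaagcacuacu
mmu-miR-142a-3p: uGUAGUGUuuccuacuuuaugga

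The 3′UTRs of the 8 genes were searched for matches to both seeds, on the transcribed strand. The letters searched were ACTTTATA (8mer), ACTTTAT (7mer-m8) and CTTTATA (7mer-A1) for miR-142a-5p, and ACACTACA, ACACTAC and CACTACA for miR-142a-3p. A 7mer inside an 8mer was counted once, as the 8mer. In the longest 3′UTR of each gene in GENCODE vM21 on the same assembly, 6 of the 8 genes held a match to miR-142a-5p and none held a match to miR-142a-3p. Among 11503 tested genes with a 3′UTR, 23.5% held a match to miR-142a-5p (5.22% an 8mer) and 12.1% a match to miR-142a-3p. The median 3′UTR was 1260 bases in the 8 genes and 1186 in the tested genes. A match describes the letters only. The matches are shown with 8 bases on each side, the match in capitals, read along the transcript, for the genes called in the comparison of BC CML with CP CML, with the 8mer for Il21.
Bcl6: gctgtaacACTTTATAcaaaggtc
Bcor: tatctcttCTTTATAtaagagaa
Icos: atgtatatACTTTATcgaactca
Sh2d1a: ttcttgatACTTTATgattatac
Il21: aatgatgtACTTTATAacttaatg
The match in Bcl6 was an 8mer at bases 73 to 80 of a 3′UTR of 1073 bases (chr16:23966045-23966052, minus strand), and that in Il21 an 8mer at bases 2476 to 2483 of 2578 (chr3:37222854-37222861, minus strand). Bcor held a 7mer-A1 (chrX:12037499-12037505, minus strand), Icos a 7mer-m8 (chr1:60998239-60998245, plus strand) and Sh2d1a a 7mer-m8 (chrX:42528924-42528930, plus strand). The Sh2d1a match lies beyond the end of the interval listed for the gene in the deposited counts, which stops at base 42522095 of the chromosome. Il21 held 2 further 7mer-A1 matches and Pou2af1 held 2, whereas the 3′UTRs of Cxcr5 and Ascl2 held no match to either strand. Genes with a match were found among those that were higher in BC CML (Bcl6, Bcor, Sh2d1a and Il21), lower (Icos) and not different at the threshold (Pou2af1).

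The knockout was seen in the counts of Mir142, which had 302 to 650 reads in each CP CML mouse and 0 reads in each BC CML mouse. Total reads on genes ranged from 15703702 to 19914531 in CP CML and from 16145537 to 19399720 in BC CML. All libraries expressed Xist and none had a read on 4 Y-linked genes. Of the 7 T cell identity genes measured, 4 were higher in BC CML and none was lower (32.6% and 32.7% over all genes tested), and their summed level was 2412 to 2838 CPM (counts scaled by edgeR's TMM method to a common depth) in CP CML and 2910 to 3200 CPM in BC CML. Summed over each list, markers of other cells were present in all libraries. Beside 32.6% higher over all genes tested, 9 of 10 myeloid genes were higher in BC CML (summed 73.1 to 450.4 CPM in CP CML and 542 to 1352 CPM in BC CML). So were 8 of 10 B cell genes (67.1 to 202.4 and 112.4 to 607.6 CPM) and 6 of 6 NK cell genes (140.1 to 187.8 and 447.2 to 682.6 CPM). The NK cell list held genes, such as Eomes and Gzma, that the study also used to annotate T cell clusters. The sample names of each group carry a number of their own that the labels do not explain, and whatever it marks cannot be told apart from genotype.

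Compared with CP CML, T cells from BC CML mice had higher levels of Bcl6, Bcor, Sh2d1a and Il21, lower levels of Cxcr5 and Icos, and no called difference in Pou2af1. The genes moved in both directions. Of the 7 tested, 4 rose and 2 fell at a Benjamini-Hochberg adjusted p below 0.05 in edgeR's quasi-likelihood test, which is the source of the fold changes, standard errors (SE) and adjusted p-values given here. Among all 12248 genes tested, 65.2% were called, 32.6% higher and 32.7% lower, so the 6 calls among 7 genes are read against that background and not as a property of the list. Log2 fold changes and log2 differences are given ± SE, and CPM ± SD. The median log2 fold change of the 7 was 0.14, against -0.01 over all genes tested. In 2 of the 7 all BC CML mice lay above all CP CML mice (Bcl6 and Sh2d1a) and in 2 all lay below (Cxcr5 and Icos), which was the case for 19.3% and 17.6% of all genes tested. In RNA of whole sorted samples, fewer cells of a type and less RNA per cell cannot be told apart.

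**Figure D1:**
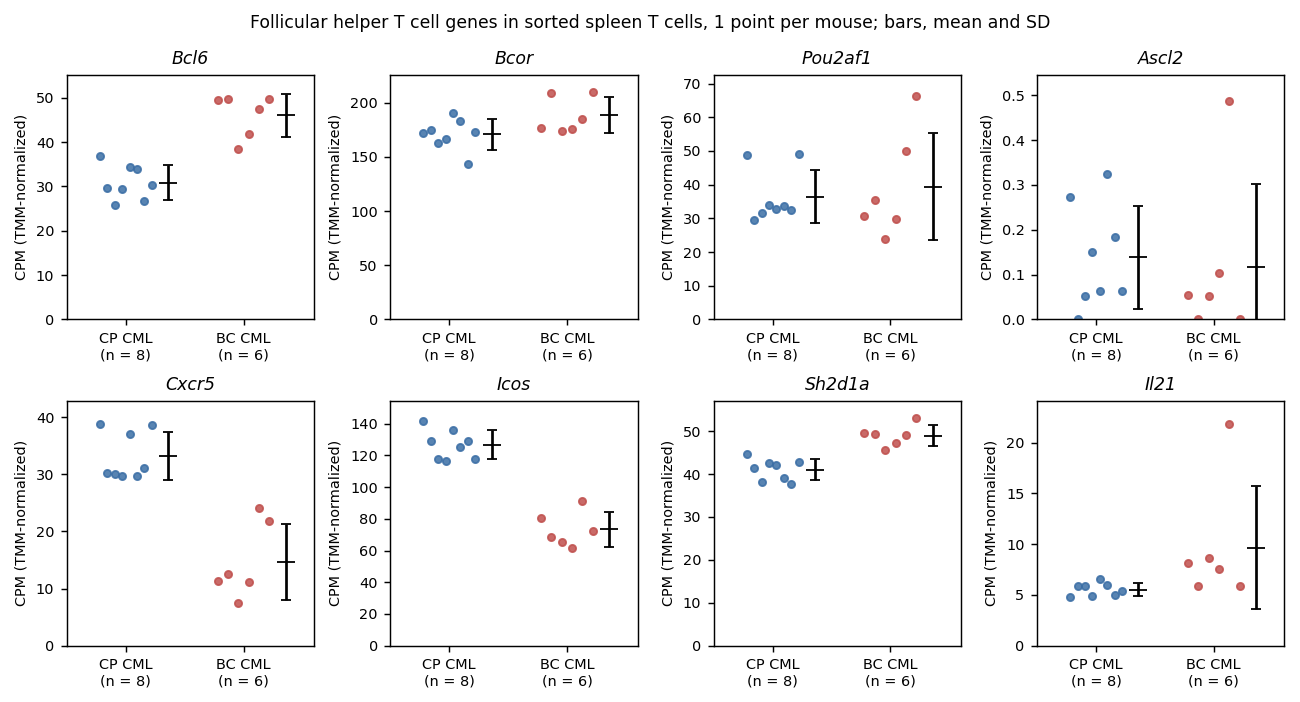
Normalized level (CPM, linear axis from 0) of the 8 genes in each mouse, with CP CML (n = 8) in blue, BC CML (n = 6) in red, and the mean and SD beside the points (for Ascl2 in BC CML the lower end of the SD is cut at 0). Bcl6 and Sh2d1a lie wholly higher and Cxcr5 and Icos wholly lower in BC CML, whereas the high mean and wide SD of Il21 in BC CML come with 1 mouse at 21.8 CPM.

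Among the transcription regulators, Bcl6 showed the largest difference. The gene (mm10 chr16:23965052-23988612, minus strand) encodes the repressor that defines Tfh cells and germinal center B cells. Its level ranged from 25.9 to 36.9 CPM (median 29.9) in the 8 CP CML mice and from 38.5 to 49.7 CPM (median 48.4) in the 6 BC CML mice. The groups did not overlap, and the lowest BC CML mouse was just above the highest CP CML mouse. The difference was 1.49-fold, a log2 fold change of 0.58 ± 0.08 (SE, edgeR adjusted p = 8.42e-06). The deviations of Bcl6 from its group means rose with those of the B cell marker score (Pearson r = 0.74 over the 14 mice). Adjusted for the B cell marker score, the log2 fold change of Bcl6 was 0.38 (edgeR adjusted p = 0.000647), and it was 0.49 (adjusted p = 0.00088) when the BC CML mice 2, 5 and 6, whose B cell score was above that of every CP CML mouse, were left out.

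Bcor encodes a corepressor that binds BCL6 and is also part of a Polycomb complex. Bcor lies at chrX:12036738-12160355 on the minus strand. The level of Bcor ranged from 143 to 190.6 CPM (median 172.3) in CP CML and from 173.8 to 209.8 CPM (median 180.7) in BC CML. The ranges overlapped from 173.8 to 190.6 CPM, with 2 of the BC CML mice above all CP CML mice. The log2 fold change was 0.14 ± 0.06 (SE, edgeR adjusted p = 0.0488), at the edge of the threshold. It did not pass with the B cell marker score as a covariate, where it was 0.02 (adjusted p = 0.857), nor when any of CP CML mice 1, 2, 3, 4, 7 or 8 or BC CML mice 2, 5 or 6 was left out (log2 fold change 0.11 to 0.15, adjusted p from 0.056 to 0.13).

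Pou2af1 encodes a coactivator of octamer-binding transcription factors that is abundant in B cells and also acts in Tfh cells. It lies at chr9:51213690-51240079 on the plus strand. Pou2af1 ranged from 29.6 to 49.1 CPM (median 33.1) in CP CML and from 23.8 to 66.4 CPM (median 33.1) in BC CML. The groups overlapped fully, the BC CML mice being spread both below and above the CP CML range. The log2 fold change was 0.11 (95% interval -0.32 to 0.54, edgeR adjusted p = 0.671). The highest mouse, BC CML mouse 6, was also the highest in B cell marker RNA (607.6 CPM), and without it the log2 fold change was -0.10 (adjusted p = 0.629). Of the 7 genes, Pou2af1 followed the B cell markers most closely within groups (Pearson r = 0.90 over the 14 mice). With the B cell marker score as a covariate it fell by 0.54 on the log2 scale (edgeR adjusted p = 0.00117).

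Ascl2, a basic helix-loop-helix factor that can act before Bcl6 in Tfh differentiation, was close to the limit of detection. The gene (chr7:142966822-142969264, minus strand) had 0 to 6 reads in the CP CML mice and 0 to 9 reads in the BC CML mice, with the 9 reads (0.487 CPM) in BC CML mouse 5. A difference in Ascl2 was not detectable at this depth, and no fold change is given.

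Among the receptors, Cxcr5 fell the most of the 8 genes. The gene (chr9:44511787-44526440, minus strand) encodes the receptor for the follicular chemokine CXCL13. Its level ranged from 29.7 to 38.8 CPM (median 30.7) in CP CML and from 7.40 to 24.1 CPM (median 12.0) in BC CML. The groups did not overlap, but the BC CML mice were uneven, with mice 5 and 6 at 24.1 and 21.8 CPM and the other 4 between 7.40 and 12.6 CPM. The level was 2.25-fold lower in BC CML, with a log2 fold change of -1.17 ± 0.22 (SE, edgeR adjusted p = 0.00033). Cxcr5 followed the B cell markers within groups (Pearson r = 0.78 over the 14 mice), and BC CML mice 5 and 6 were among the 3 with a B cell score above every CP CML mouse. The other of the 3, mouse 2, had more B cell marker RNA than mouse 5 (370.8 and 321.1 CPM summed) and a Cxcr5 level of 12.6 CPM, among the 4 low mice. The difference was larger with that score as a covariate (log2 fold change -1.75, adjusted p = 2.39e-06) and without the 3 mice (-1.73, adjusted p = 1.48e-07).

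Icos lies at chr1:60977914-61000321 on the plus strand, and its product is induced on activated T cells and is required for Tfh cells to form and persist. Icos was between 116.2 and 141.6 CPM (median 127) in CP CML and between 61.7 and 91.2 CPM (median 70.6) in BC CML. The groups were well separated, with no mouse of either group between 91.2 and 116.2 CPM. The level was 1.73-fold lower in BC CML, with a log2 fold change of -0.79 ± 0.08 (SE, edgeR adjusted p = 1.14e-07). Icos followed the B cell markers less closely (Pearson r = 0.36 and Spearman rho = 0.49 over the 14 mice), and its log2 fold change was -0.88 with their score as a covariate.

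Sh2d1a encodes SAP, the adaptor that carries signals from the SLAM family receptors and lets T cells hold on to B cells. Sh2d1a lies at chrX:42502453-42522095 on the plus strand. Its level ranged from 37.7 to 44.6 CPM (median 41.7) in CP CML and from 45.6 to 53.1 CPM (median 49.2) in BC CML. The groups did not overlap, although their nearest mice were about 1 CPM apart. The difference was 1.19-fold, a log2 fold change of 0.26 ± 0.05 (SE, edgeR adjusted p = 0.000129). With the B cell marker score as a covariate the log2 fold change was 0.16 (edgeR adjusted p = 0.0144). Sh2d1a followed that score within groups (Pearson r = 0.75 over the 14 mice).

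Il21 encodes the cytokine by which Tfh cells act on B cells. It lies at chr3:37222759-37232636 on the minus strand and was the lowest of the 7 tested genes, with 81 to 115 reads in CP CML and 94 to 403 reads in BC CML. The normalized level of Il21 ranged from 4.75 to 6.56 CPM (median 5.64) in CP CML and from 5.86 to 21.8 CPM (median 7.87) in BC CML. BC CML mouse 5 stood apart at 21.8 CPM, the next was at 8.66 CPM, and 2 of the 6 BC CML mice lay within the CP CML range. The log2 fold change was 0.81 ± 0.26 (SE, edgeR adjusted p = 0.0117), and without mouse 5 it was 0.39 (adjusted p = 0.0106). It did not pass the threshold with the B cell marker score (0.85, adjusted p = 0.0598) or the myeloid marker score (0.59 ± 0.46, adjusted p = 0.331) as a covariate. The myeloid score did not overlap between groups (at most 4.29 in CP CML and at least 4.50 in BC CML). The fit with it therefore cannot separate it well from group.

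Per kilobase of gene, the order of the 8 genes also differed between groups. In CP CML, Sh2d1a (39.6 ± 2.38 CPM per kilobase, SD, n = 8) and Icos (38.9 ± 2.81) were highest and did not differ beyond their spread. Bcor followed at 20.6 ± 1.72, then Pou2af1 (14.2 ± 3.06) and Cxcr5 (12.6 ± 1.58), which again lay within each other's spread. Bcl6 was at 9.43 ± 1.18, Il21 at 1.74 ± 0.20 and Ascl2 at 0.086 ± 0.072 CPM per kilobase. In BC CML, Sh2d1a was alone at the top (47.3 ± 2.44, SD, n = 6). Bcor (22.7 ± 2.03) and Icos (22.6 ± 3.35) were then level, and Pou2af1 (15.4 ± 6.22) and Bcl6 (14.1 ± 1.47) were level in turn. Cxcr5 had dropped below Bcl6, at 5.59 ± 2.52, and Il21 was at 3.04 ± 1.91 CPM per kilobase. The place of Cxcr5 against Bcl6 was thus opposite in the groups, 12.6 against 9.43 in CP CML and 5.59 against 14.1 in BC CML.

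Because Tfh cells are CD4+ T cells, each gene was also set against Cd4 of the same library. Cd4 itself was lower in BC CML, from 352 to 433.8 CPM in CP CML and from 191.2 to 295.2 CPM in BC CML, with no overlap (log2 fold change -0.73 ± 0.09, SE, edgeR adjusted p = 4.98e-06). Cd8a went the other way (log2 fold change 0.87 ± 0.08), whereas Cd8b1 had a log2 fold change of 0.07 (adjusted p = 0.352). The CD4 lineage regulator Zbtb7b had a log2 fold change of 0.12 (adjusted p = 0.51). Whether Cd4 fell by fewer CD4+ cells or by less Cd4 RNA in each cannot be told apart here, so a level relative to Cd4 is not a level per CD4+ cell.

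Relative to Cd4, Icos did not differ at the threshold, Cxcr5 was lower by less than in CPM, and Bcl6, Bcor, Sh2d1a, Il21 and Pou2af1 were higher in BC CML. Icos was at 26.8% to 34.1% of the Cd4 level (median 32.1%) in CP CML and at 26.4% to 33.5% (median 30.7%) in BC CML, with fully overlapping groups. The difference in mean log2 ratio was -0.04 ± 0.06 (exact permutation p = 0.515, 8 against 6 mice). Cxcr5 was lower, with a median of 7.74% in CP CML and 5.71% in BC CML and overlapping groups (difference -0.47 ± 0.19, exact permutation p = 0.0213). The log2 fold change of Icos in CPM (-0.79) was close to that of Cd4 (-0.73), and that of Cxcr5 (-1.17) was larger.

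Bcl6 had a median of 7.73% of the Cd4 level in CP CML and 19.0% in BC CML, and all BC CML mice lay above all CP CML mice (difference in mean log2 ratio 1.31 ± 0.10). Il21 (median 1.46% and 3.44%, difference 1.32 ± 0.25), Sh2d1a (9.79% and 20.6%, difference 1.00 ± 0.10) and Bcor (42.8% and 83.0%, difference 0.89 ± 0.12) were likewise higher with no overlap. For these 4 genes the exact two-sided permutation p was 0.000666, the smallest that the 3003 ways of dividing 14 mice into 8 and 6 allow. The share of all genes that separate relative to Cd4 was not computed. Because Cd4 fell without overlap (log2 fold change -0.73), a gene with no change in CPM is also higher relative to Cd4. The separation is therefore not read as a property of these genes. Pou2af1 was also higher relative to Cd4 (median 8.02% and 15.6%, difference 0.79, exact permutation p = 0.00333), with overlapping groups. In CPM the log2 fold changes of Pou2af1 (0.11) and Bcor (0.14) were small beside that of Cd4 (-0.73). Their higher ratios thus come mostly from the lower Cd4 level. These p-values are unadjusted for 7 comparisons. Bcl6, Sh2d1a and Bcor are also expressed by cells without CD4, and 6 of 6 NK cell genes, Cd8a and 8 of 10 B cell genes were higher in BC CML. The part of such cells in these ratios was not tested.

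**Figure D2:**
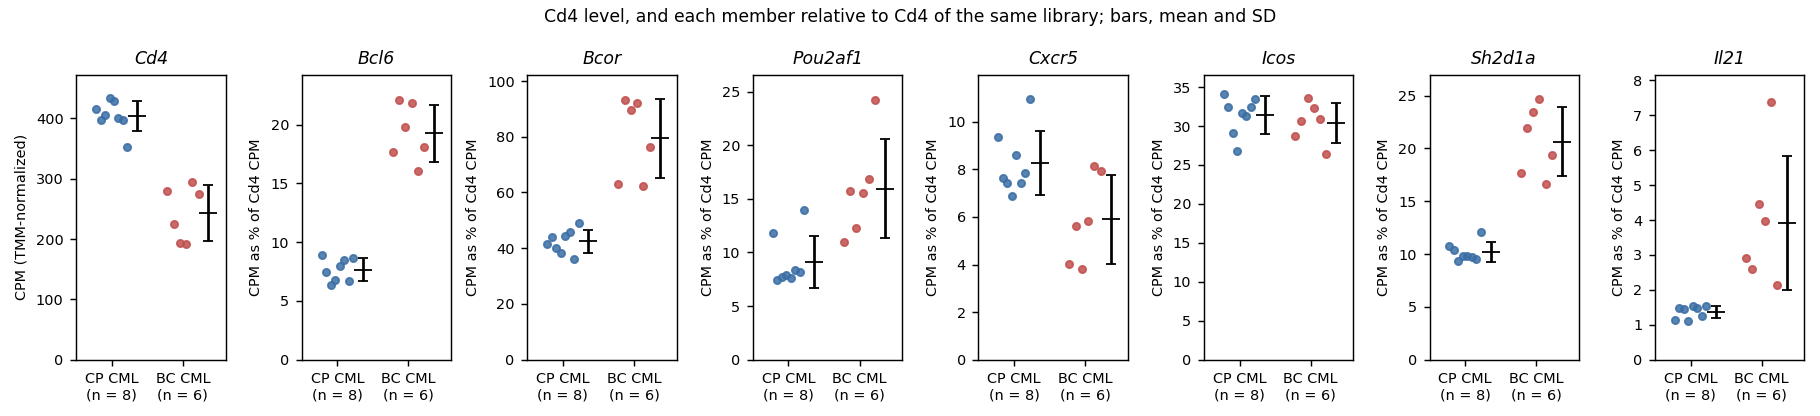
Level of Cd4 (CPM, left panel) and of each tested gene as a percent of the Cd4 level of the same library (other panels, linear axes from 0), 1 point per mouse, with CP CML (n = 8) in blue, BC CML (n = 6) in red, and the mean and SD beside them. Cd4 is wholly lower in BC CML, Icos overlaps fully at a median of 32.1% and 30.7%, and Bcl6, Bcor, Sh2d1a and Il21 lie wholly higher.

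Within groups, the B cell markers varied with the genes that B cells share (Pou2af1, Cxcr5 and Bcl6). They also varied with Sh2d1a (Pearson r = 0.75) and Bcor (0.62). None of the 10 markers was at 0 reads in any library, all 10 overlapped between groups, and their summed level had a median of 107.1 CPM in CP CML and 256.7 CPM in BC CML. As an example, Cd22 was at 31.1 ± 8.70 CPM (SD, n = 8) in CP CML and 75.7 ± 35.3 CPM (SD, n = 6) in BC CML. In BC CML 8 of the 10 markers were higher, as were Bcl6 and Bcor, and Cxcr5 was lower. The part of B cell RNA in the levels of these 3 genes was not tested beyond the covariate values above. Of 6 tested plasma cell genes, 4 were lower and 1 higher in BC CML, against 32.7% lower and 32.6% higher over all genes. The lower genes were Jchain, which joins antibody molecules (log2 fold change -3.22 ± 0.56), Sdc1 (-1.21 ± 0.40), and Irf4 and Prdm1, which also stand in the lists of Tfh regulators. Xbp1 was higher (0.42 ± 0.06) with no overlap between groups, Mzb1 did not pass (-0.49, adjusted p = 0.346), and Tnfrsf17 had 0 reads in all BC CML mice and 0 to 3 reads in the CP CML mice.

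**Figure D3:**
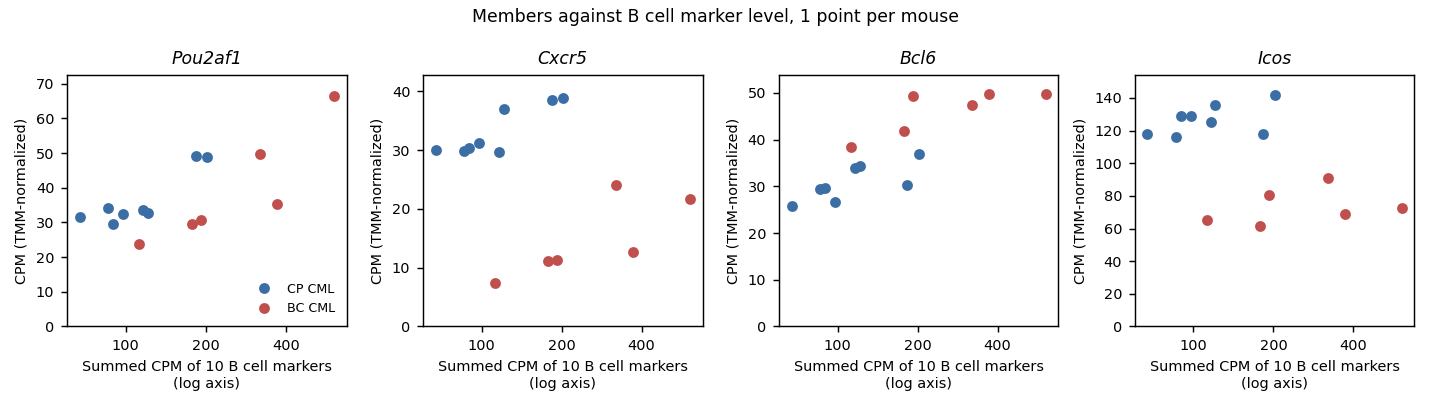
Level of Pou2af1, Cxcr5, Bcl6 and Icos (CPM, linear axes from 0) against the summed CPM of 10 B cell markers (log axis) in each mouse, with CP CML in blue and BC CML in red. Pou2af1 follows the markers most closely (Pearson r of the deviations from the group means 0.90 over the 14 mice), Cxcr5 follows them less (0.78) and all its BC CML points lie below the CP CML points, and Icos is split by group and follows them least of the 4 (0.36).

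Over the 14 mice, the deviations of the genes from their group means were compared as a description, with the caution that all genes share the same libraries and the same admixture of other cells. Pou2af1 and Cxcr5 varied together most (Pearson r = 0.89), followed by Bcl6 with Sh2d1a (0.73), Pou2af1 with Sh2d1a (0.71) and Bcl6 with Bcor (0.69). Among about 9160 well-expressed genes, the 3 whose deviations were most like those of Pou2af1 were Cd79b (r = 0.94), Naaa (0.93) and Cd22 (0.92), of which Cd79b and Cd22 encode surface proteins of B cells. The nearest to Cxcr5 were S100a11 (0.93), Cltc (0.92) and Cript (0.91). Rap2b was the nearest to both Bcl6 (0.88) and Sh2d1a (0.87). Zfp710 was the nearest to Bcor (0.92), Hyls1 to Icos (0.87) and Angptl2 to Il21 (0.94).

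The other genes of the Tfh program were taken from 4 lists, which were described by counts and medians without a set test. Of 17 surface and signaling genes, 2 rose, 5 fell and 10 did not pass the test, beside 65.2% called over all genes, and the median log2 fold change was -0.12 against -0.01 over all genes. Il6ra, the receptor chain for IL-6, a cytokine that starts the Tfh program, fell the most, from 201.9 ± 14.4 CPM (SD, n = 8) to 68.9 ± 10.4 CPM (SD, n = 6), a log2 fold change of -1.55 ± 0.08 (SE, edgeR adjusted p = 5.00e-11). Slamf6, a SLAM family receptor that signals through SAP, fell from 366 ± 42.7 to 182.6 ± 17.3 CPM (edgeR adjusted p = 9.42e-09), and Tnfrsf4, which encodes the costimulatory receptor OX40, had a log2 fold change of -0.64 ± 0.09 (SE). In all 3 the BC CML mice lay wholly below the CP CML mice. Among the SLAM receptors, Ly9 rose slightly (0.17 ± 0.03), Cd84 fell slightly (-0.16 ± 0.04) and Slamf1 did not pass (-0.12, adjusted p = 0.165). The chemokine receptor Cxcr4 was higher with overlap (0.65 ± 0.23, adjusted p = 0.0252), and without BC CML mouse 5 or mouse 6 only 1 gene of this list was called higher. Pdcd1, the gene of PD-1, which Tfh cells carry at high levels, had a log2 fold change of 0.29 (adjusted p = 0.0902) and Cd40lg, the helper ligand for B cells, of -0.26 (adjusted p = 0.0508), neither past the threshold. Il4 was at 1.13 ± 0.43 and 1.19 ± 0.36 CPM.

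In a further list of 10 regulators of Tfh differentiation, 3 passed the test as higher and 7 as lower in BC CML, with a median log2 fold change of -0.41, where 65.2% of all genes tested were called, 32.6% higher and 32.7% lower. The 7 included calls near the threshold, such as Stat3 (-0.10, adjusted p = 0.0476), and the lower genes numbered 5 to 7 without single mice, 6 with the likelihood ratio test and 5 with the B cell score as a covariate. Most of the 10 promote Tfh cells, but the list also held Id3 (-0.46 ± 0.16), an inhibitor of E proteins that restrains them. The ubiquitin ligase gene Itch (0.16 ± 0.04) was among the 3 higher genes. Maf, which drives Il21, rose from 58.6 ± 8.82 CPM (SD, n = 8) to 85.5 ± 12.4 CPM (SD, n = 6), a log2 fold change of 0.55 ± 0.10 (SE), with no overlap between groups. Tcf7 and Lef1, which act upstream of Bcl6 and also mark naive T cells, fell, Tcf7 from 1971 ± 143.8 to 1239 ± 132.7 CPM (log2 fold change -0.67 ± 0.06) and Lef1 with a log2 fold change of -0.70 ± 0.08 (SE). Batf (-0.61 ± 0.06) and Irf4 (-0.54 ± 0.10), partners downstream of the T cell receptor, fell too, and in these 4 genes the groups did not overlap. Of the 6 naive T cell genes, 5 fell, the exception being Satb1 (0.14), and Tcf7 and Lef1 stand in both lists.

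The 15 genes that restrain Tfh differentiation moved in both directions, 7 higher, 4 lower and 4 not passing, beside 32.6% higher and 32.7% lower over all genes, with a median log2 fold change of 0.10. The highest were Id2, an inhibitor of E proteins, which rose from 139.1 ± 10.6 CPM (SD, n = 8) to 353 ± 27.5 CPM (SD, n = 6, log2 fold change 1.34 ± 0.06), and Tbx21, the gene of the effector regulator T-bet (1.12 ± 0.11). Il2rb, a chain of the IL-2 receptor, also rose (0.88 ± 0.07). Id2, Tbx21 and Il2rb are also expressed by NK and effector CD8 T cells. The 6 NK cell genes and Cd8a were higher in the same libraries, and the part of those cells was not tested. Prdm1, whose product BLIMP-1 and BCL6 repress each other, fell from 21.1 ± 2.84 to 11.5 ± 1.90 CPM (log2 fold change -0.88 ± 0.11, adjusted p = 1.99e-06), with no overlap. Prdm1 is also a plasma cell gene. Of the 5 other plasma cell genes tested, 3 were lower (Irf4 among them), Xbp1 was higher and Mzb1 did not pass, and the part of those cells in its fall was not tested. Klf2 (-0.61 ± 0.05) and its target S1pr1 (-0.68 ± 0.07), which keep T cells in circulation, were lower, as was Stat5b (-0.47 ± 0.04).

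Of 11 genes of the BCL6 corepressors and the BCOR complex, 2 rose, 4 fell and 5 did not pass (65.2% were called over all genes), with a median log2 fold change of -0.03. Skp1a, a subunit that the BCOR complex shares with ubiquitin ligases, rose from 161.4 ± 5.89 CPM (SD, n = 8) to 300.2 ± 19.3 CPM (SD, n = 6), a log2 fold change of 0.90 ± 0.04 (SE). Usp7 (-0.33 ± 0.04), Bcorl1, the relative of Bcor (-0.33 ± 0.12), and Rnf2 (-0.32 ± 0.06) fell. Among the corepressors that BCL6 recruits, Ncor1 had a log2 fold change of 0.05 (adjusted p = 0.287) and the deacetylase gene Hdac3 of 0.13 ± 0.04 (SE).

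Of 5 regulatory T cell genes, 3 were lower and 1 higher in BC CML, where 65.2% of all genes were called, 32.7% lower. Foxp3, which defines these cells, fell from 94.2 ± 8.14 CPM (SD, n = 8) to 28.5 ± 4.32 CPM (SD, n = 6), a log2 fold change of -1.73 ± 0.08 (SE). Ctla4 (-1.34 ± 0.13) and Ikzf4 (-0.54 ± 0.07) fell as well, and in all 3 the groups did not overlap, whereas Ikzf2 rose (0.62 ± 0.11) and Il2ra did not pass (0.12, adjusted p = 0.197). Icos and Cxcr5 are also expressed by regulatory T cells, and the part of these cells in the fall of both genes was not tested.

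**Figure D4:**
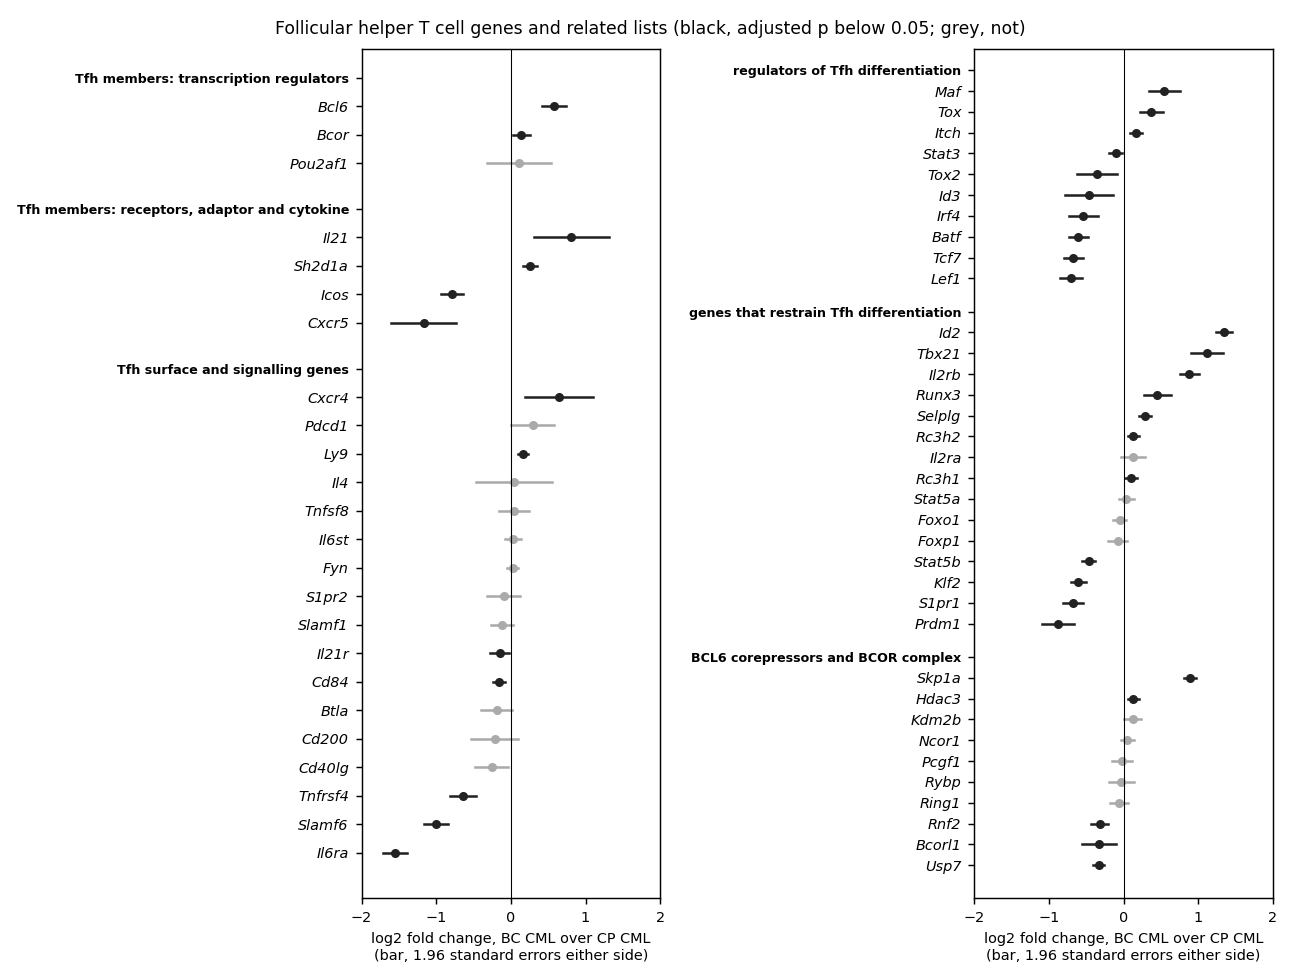
Log2 fold change (BC CML over CP CML, horizontal axis) of the tested genes of the Tfh program and of 4 related lists, but for 1 gene of the last list that is not reported here, with bars for 95% intervals, in black where the adjusted p was below 0.05 and in grey where it was not. Within each of the 4 related lists genes lie on both sides of 0, from Il6ra at -1.55 to Id2 at 1.34.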

How the data were processed

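Poly(A) RNA from sorted spleen T cells of 14 mice was sequenced as paired reads of 101 bases, 1 library per mouse. Per the study's methods, the authors trimmed reads with Trimmomatic and FASTP and aligned them to mm10 with STAR 2.6.0, and they deposited raw counts of reads per gene from HTSeq 0.11.1 (versions from the submitters' processing notes). The annotation and the strand setting are not given in the sources used here. Bcor and Sh2d1a lie within the interval listed for Timm8a1, which had at most 86 reads in a library. The deposited gene length was used for CPM per kilobase.

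Counts were filtered with filterByExpr, normalized by TMM and compared by the quasi-likelihood test of edgeR 4.0.16 (limma 3.58.1, R 4.3.3) with robust estimation, no covariate and Benjamini-Hochberg adjustment over 12248 genes at 0.05. The study's methods name the likelihood ratio test, which was an alternative. Standard errors were computed from the fold change and the F statistic, and 95% intervals as 1.96 of them. Levels relative to Cd4 were differences of log2(CPM + 1), compared by exact two-sided permutation over 3003 divisions of the mice (Python 3.11.15, scipy 1.17.1). Adjustment over the genes had been planned, but the p-values are given unadjusted. The 3′UTRs were from GENCODE vM21 transcripts. Marker scores were mean log2 CPM (prior count 2).

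On simulated counts for this comparison (12175 genes, of which 200 had a log2 change of 1), 185 of those were recovered (92.5%) by the quasi-likelihood test, with 3 other calls. The simulation changed far fewer genes than the 65.2% called in the data, so scaling and false calls under so wide a change were not tested. Depth was 15703702 to 19914531 reads. The chi-square per degree of freedom between replicates was 2.99 to 20.8 in CP CML and 7.89 to 21.6 in BC CML, so no library repeated another.

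The fold changes and counts of calls were recomputed with DESeq2 1.42.0, with the likelihood ratio test, with RLE factors or only the library size for scaling, with all genes kept or those at more than 1 CPM in at least 6 mice, with the replicate number as a block, with the B cell score as a covariate, and without each mouse in turn. The ratios to Cd4 were recomputed with a pseudocount of 0.5 and without each mouse in turn, and the correlations and the levels per kilobase under no other setting. Added after the data had been seen were the myeloid score as a covariate and the 3 BC CML mice with the highest B cell scores left out. The 8 genes and the lists were chosen with earlier results of these data known. Named were the 8 genes, Mir142, in each related list up to 4 called genes with the largest change and others needed for a role, marker genes, and genes from the 3 nearest to each of the 7 tested genes in their deviations (all 3 for Pou2af1 and Cxcr5, the nearest for the others). The marker lists comprised B cell, plasma cell, myeloid, erythroid, NK cell, T cell identity, coreceptor, regulatory, naive, proliferation and X- and Y-linked genes. Of 4 tested erythroid genes 1 was higher (32.6% over all genes), and of 6 proliferation genes 1 was lower (32.7%). Results of 2 genes of these lists are not reported by name here, although the counts include them.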

Additional observations from a re-analysis of the deposited data

Results flagged for a closer look

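In 4 of the 40 groups of values examined, 1 mouse lay apart from the rest of its group by a gap that was large against the group's range, where chance gives about 2.

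Il21 was at 21.8 CPM in BC CML mouse 5, and the next highest BC CML mouse was at 8.66 CPM, a gap of 0.825 of the range. Ascl2 was at 0.487 CPM in the same mouse, with the next at 0.105 CPM (a gap of 0.785), which rests on 9 reads. The name of this mouse carries a suffix that the labels do not explain.

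The total of BC CML mouse 2 was 16145537 reads, with the next lowest at 18319039 (a gap of 0.668). The score of the X inactivation and Y-linked list, which rests on Xist alone because no library had a Y-linked read, was 10.79 on the log2 scale in CP CML mouse 2, with the next lowest at 11.05 (a gap of 0.604).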

How the results depend on the processing

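Bcl6, Sh2d1a, Cxcr5 and Icos kept their direction and passed the threshold in edgeR or DESeq2 under all 10 other settings and without any single mouse, with log2 fold changes of 0.38 to 0.62, 0.16 to 0.28, -1.75 to -1.03 and -0.90 to -0.74. Bcor did not pass with the likelihood ratio test (0.14), scaling by library size alone (0.13), all genes kept (0.14), the B cell score (0.016) or the myeloid score (0.050) as a covariate, or the 3 BC CML mice with the highest B cell scores left out (0.046), and without single mice it ranged from 0.11 to 0.17. Pou2af1 was lower with the B cell score (-0.54, edgeR adjusted p = 0.00117), had a negative value that did not pass with the myeloid score (-0.40, adjusted p = 0.365) or those 3 mice left out (-0.37, adjusted p = 0.081), and ranged from -0.10 to 0.22 without single mice. Il21 did not pass with the B cell score (0.85) or the myeloid score (0.59). The genes of the 8 called higher were 2 with either score, 3 to 4 without single mice. With the myeloid score 5116 genes were called over all tested, and the lists changed to 1 higher and 3 lower surface genes, 1 higher and 4 lower genes among the 10 regulators of Tfh differentiation, and 1 higher corepressor gene. Among the surface genes 1 was higher with the B cell score or with the 3 mice left out, and 1 to 2 without single mice. The cause was not tested. Because the myeloid score did not overlap between groups, fits with it cannot separate it well from group. The levels relative to Cd4 stayed on the same side of 0.05 in all settings run.

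Replicate numbers did not mark pairs of mice. Same-numbered mice had correlations from -0.27 to 0.36, over 0.1 in 2 of 6 pairs, and the mice are different animals. With the number as a block 7318 genes were called, and Bcor did not pass (log2 fold change 0.10, edgeR adjusted p = 0.077), with no other call on the 8 genes changed.

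The depth of 15703702 to 19914531 reads per library limits Ascl2 (at most 9 reads) and Il21. Bulk RNA of sorted cells gives no level per Tfh cell.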
